A study of Mus musculus with 15 samples.

Results

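The difference between the effects of 2 deletions of Atf4 in the embryonic mouse heart was described gene by gene. One deletion removes exons 2 and 3 of Atf4, which hold its coding sequence (CDS), and keeps the polyadenylation signal (PAS). The other removes the PAS. For each gene the difference is the log2 change of the libraries labelled PAS knockout against PAS control, minus the log2 change of the CDS knockout against CDS control, so that a positive value means that the PAS change was higher, or less negative, than the CDS change. All 15 libraries were used, and the description covers the 11331 genes with a mean of at least 5 CPM (fragments of a gene relative to the normalised library total) over them, of 20269 genes tested and 78317 in the files. Close to this limit, Tmc4 lay inside at 5.006 CPM with a difference of −0.44, and Cox8b lay outside at 4.997 CPM with a difference of 0.26.

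The libraries hold RNA of ventricles from C57BL/6 embryos at embryonic day 11.5, with 4 CDS knockouts, 4 CDS controls, 4 libraries labelled PAS knockout and 3 PAS controls. Both loxP-flanked lines were crossed with Xmlc2-Cre, which acts in cardiomyocytes, so deletion in the other cells of the ventricle is not part of the design. The labels call the remaining libraries controls and do not say whether they carry Cre or loxP sites. All libraries have batch label 1, and the lines were counted in separate runs, so line and counting run cannot be told apart in a level, while each change is taken within a line. The protocol labels disagree on the source, since one names cortical neurons in culture, and on the library preparation, since one names a kit that selects poly(A) RNA and another the depletion of ribosomal RNA. The summed level of 29 sarcomere genes was 51039 to 60462 CPM in the libraries, against 222 to 307 CPM for 13 neural markers. Most of the neural sum was Nes alone, at 183 to 264 CPM. Total counts ran from 22623499 to 46472141 per library.

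Atf4 is a bZIP transcription factor of the integrated stress response, in which phosphorylation of eIF2α slows general translation while translation of the Atf4 message rises. Its known targets include aminoacyl-tRNA synthetases, which charge tRNAs with amino acids, enzymes of serine, proline, asparagine and one-carbon synthesis, and amino acid transporters. A polyadenylation signal directs cleavage and tailing of the message at the end of the gene, so the alleles alter the same gene at different steps. The comparison asks which functions follow one deletion and not the other.

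The alleles are named after the coding sequence and the signal. The last AATAAA hexamer of an Atf4 transcript is shown here with the bases around it, 30 in all. They lie at chr15:80257505-80257534 on the plus strand of GRCm38 (GENCODE release 21), near the end of a transcript of 1725 bases in 3 exons, and the capitals mark the hexamer AATAAA. The positions of the loxP sites are not given in the sources used here, so which bases either deletion removes cannot be told. The hexamer shown lies in the last exon of this transcript. The CDS deletion is described as removing exons 2 and 3 while keeping the PAS. How these fit together cannot be told, since the exon numbers were not matched to this transcript. The transcript holds 2 such hexamers, and the one shown is the last, with 19 bases from it to the transcript end, some of them beyond the stretch shown.
Atf4 end: tgtgtttgctgtAATAAAttattttgtagt

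On the target side, the letters TGATGCAA, or TTGCATCA on the other strand, were searched on both strands in promoter windows of RefSeq (GRCm38.p6) from 250 bases before to 50 bases after a gene's start. They resemble the composite C/EBP-ATF element through which ATF4 and its partners are known to act. Of 20 cytosolic aminoacyl-tRNA synthetases, 13 had a promoter entry and 4 of those held the letters (Aars, Iars, Tars and Yars), against 59 of the 8807 described genes with an entry (0.67%) and 294 of all 32851 promoters (0.895%). Enzymes of amino acid and one-carbon synthesis held them in 2 of 15 with an entry, and amino acid transporters in 1 of 10. Of the members lower in both lines at an unadjusted p under 0.05, Aars, Iars, Yars and Pycr1 held the letters. Gars, Mars, Asns, Phgdh, Mthfd2, Aldh18a1 and Slc3a2 had an entry without them. A match is a description of letters and not a binding site. The stretches of 3 synthetase genes that fell in the CDS knockout are shown with the match in capitals. They lie at chr13:49682091-49682179 for Iars, at chr4:129189860-129189952 for Yars and at chr8:111033684-111033783 for Aars, all on the plus strand, and the match lies 7 bases after the start of Iars, 3 after that of Yars and 112 before that of Aars.
Iars promoter: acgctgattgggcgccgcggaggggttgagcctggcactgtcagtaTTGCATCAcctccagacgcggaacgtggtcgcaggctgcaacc
Yars promoter: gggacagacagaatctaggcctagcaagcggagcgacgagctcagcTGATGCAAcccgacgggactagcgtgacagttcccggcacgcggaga
Aars promoter: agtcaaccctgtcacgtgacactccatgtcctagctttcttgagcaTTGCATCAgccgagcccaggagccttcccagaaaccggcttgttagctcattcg

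Atf4 itself was the one gene called in both lines with opposite directions. Its level in the CDS knockouts was 39.6, 48.1, 45.3 and 45.1 CPM, against 114, 112, 116 and 115 CPM in the CDS controls. In the libraries labelled PAS knockout it was 304, 292, 288 and 259 CPM, against 98.9, 92.2 and 100 CPM in the PAS controls. The groups did not overlap in either line, and the label PAS knockout thus goes with a higher Atf4 count. On the log2 scale Atf4 fell by 1.36 ± 0.05 (SE) after CDS deletion and rose by 1.56 ± 0.06 after PAS deletion. The difference of 2.92 ± 0.08 corresponds to a 7.56-fold ratio of the changes, with an adjusted p of 3.88e-17 in edgeR's quasi-likelihood test (Benjamini-Hochberg, over all genes tested). The counts pool all exons of Atf4, so the exons behind them were not told apart, and no protein was measured. Because the labels do not settle whether poly(A) RNA was selected, how far RNA without a tail entered the counts cannot be told, and this bears on an allele that lacks its polyadenylation signal. The messages of replication-dependent histone genes mostly lack a tail. The summed level of 17 genes listed as such was 22.5 to 30.4 CPM, with ranges that overlapped between all groups. Only 2 of them reached a mean of 5 CPM, Hist1h1c at 9.22 to 15.8 CPM and Hist1h2bc at 5.17 to 8.64 CPM. Whether the fragments of these genes came from RNA without a tail was not tested, so the sum does not measure such RNA. In bulk tissue, fewer cells of a type and less RNA per cell cannot be told apart.

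Atf4 was also the sole gene called for the difference among the 11331, which is 0.00883% of them, with the adjustment over all genes tested. With the same p-values adjusted over the described genes alone, 2 genes passed. At an unadjusted p under 0.05 there were 434 genes (3.83%), 247 with a positive difference (2.18%) and 187 with a negative one (1.65%). Within the lines, 9 of the described genes were called with CDS deletion (0.0794%), all lower in the knockout, and 2 with PAS deletion (0.0177%), Atf4 higher and Cars lower. The median difference over all described genes was 0.0067 on the log2 scale, and 52.9% of the differences were positive. The data bound most differences closely. The 95% interval of the difference lay within 1.5-fold in both directions for 10671 genes (94.2%) and within 2-fold for 11174 (98.6%). The median standard error of the log2 difference was 0.16 for genes of 5 to 10 CPM and 0.063 for genes of 100 to 300 CPM.

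**Figure D1:**
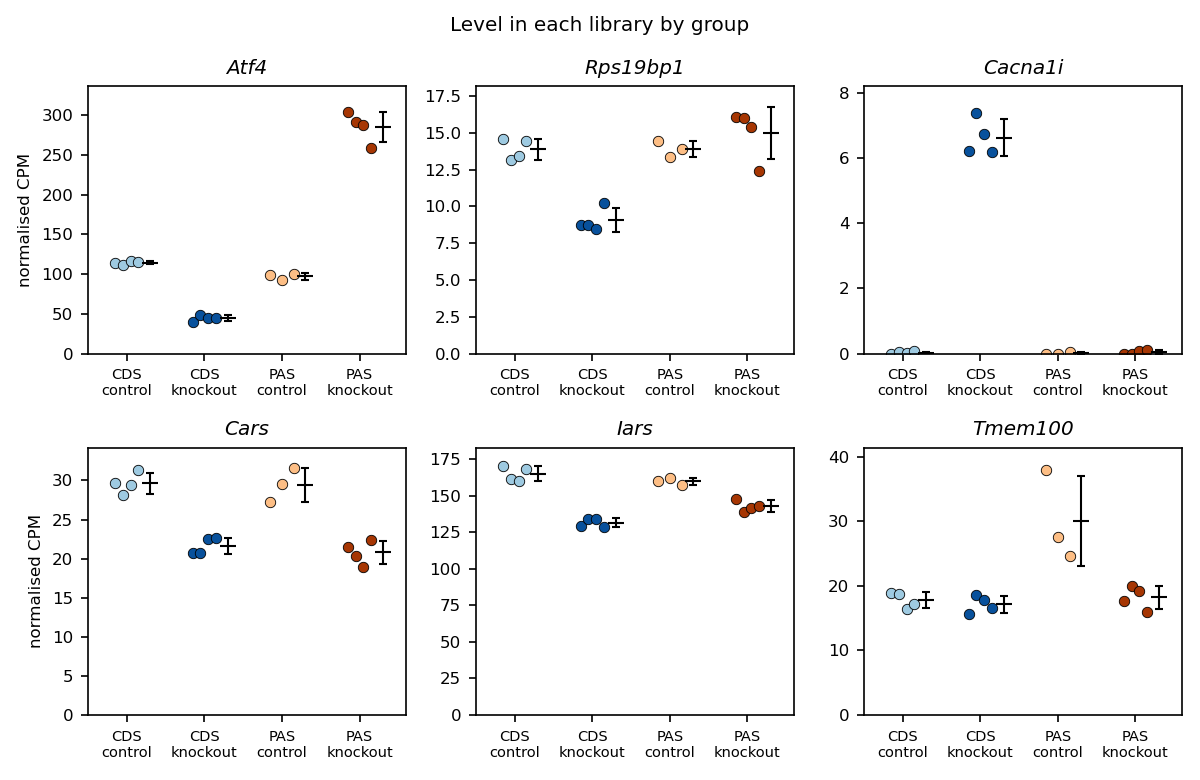
Normalised CPM (y axis, from 0) of 6 genes in each library (points) of the 4 groups (x axis), with the mean and SD over libraries beside them. Atf4 is low in the CDS knockouts and high in the libraries labelled PAS knockout, Rps19bp1 and Cacna1i separate in the CDS line, Cars and Iars are lower in the labelled knockouts of both lines, and Tmem100 is spread among the PAS controls.

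Next to Atf4 on chromosome 15, a pair of genes had groups that were apart in the CDS line and not in the PAS line. On GRCm39 Atf4 lies at chr15:80139385-80141742 on the plus strand. Rps19bp1, which encodes an activator of SIRT1 that also binds a ribosomal protein, lies 3.07 kb past the end of Atf4 on the opposite strand, at chr15:80144816-80148516. Its level was 8.75, 8.71, 8.48 and 10.3 CPM in the CDS knockouts and 14.6, 13.2, 13.4 and 14.4 CPM in the CDS controls. The libraries labelled PAS knockout had 16.1, 16.0, 15.4 and 12.4 CPM and the PAS controls 14.4, 13.4 and 13.9 CPM. The CDS groups did not overlap and the PAS groups did. Rps19bp1 fell by 0.62 ± 0.08 (SE) on the log2 scale in the CDS line, with an adjusted p of 0.000753 by edgeR's quasi-likelihood test, and its change in the PAS line was 0.11 ± 0.09. The difference of 0.73 (95% interval 0.47 to 0.99) was the second by p of all genes and missed the threshold, with an adjusted p of 0.0770 by edgeR's quasi-likelihood test. It passed without CDS knockout 4 (adjusted p 0.0327), without the library labelled PAS knockout 4 (0.0046), by DESeq2 (0.0005) and with no filter on low counts (2.9e-05), and reached 0.383 at the other end of the alternatives by edgeR with the replicate number as a block. With the p-values of the main fit adjusted over the described genes alone, 2 genes passed, Atf4 and Rps19bp1. With the fit itself also limited to the described genes, Rps19bp1 did not pass.

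Cacna1i, which encodes a T-type calcium channel and starts 29.7 kb past Atf4 on the same strand (chr15:80171439-80282480), had a mean level of 1.79 CPM and so lies outside the described genes. It is given because the CDS knockouts held nearly all of its fragments. Its counts were 268, 307, 240 and 193 in the CDS knockouts, 0, 1, 1 and 3 in the CDS controls, 0, 0, 2 and 3 in the libraries labelled PAS knockout and 0, 0 and 1 in the PAS controls. Relative to their total counts, the CDS knockouts held 142 times as much as the libraries labelled PAS knockout, with an exact 95% interval from 60.8 to 440 that covers counting error only. The fitted difference had an unadjusted p of 0.025 and an adjusted p of 0.995 by edgeR's quasi-likelihood test, so the separation of the counts is given as a description. The other described genes within 250 kb of Atf4 were Pdgfb, Rpl3, Syngr1, Tab1, Mgat3 and Mief1, with differences from −0.24 to 0.17. None of them was called, and the smallest unadjusted p was 0.030 for Tab1, a partner of the kinase TAK1.

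The genes that were lower in both lines were mostly genes of amino acid metabolism. Among all described genes, 190 were lower in the CDS knockout at an unadjusted p under 0.05 (1.68%) and 241 were lower in the libraries labelled PAS knockout (2.13%). These shared 18 genes, which is 9.47% of the first and 7.47% of the second. Of the 18, 8 were cytosolic aminoacyl-tRNA synthetases (Aars, Cars, Gars, Iars, Lars, Mars, Nars and Yars), 5 were enzymes of amino acid and one-carbon synthesis (Aldh18a1, Asns, Mthfd2, Phgdh and Pycr1) and 2 were the transporter subunits Slc3a2 and Slc7a5. The other 3 were Aamp, Plcl2 and Eif2s2, a subunit of the translation initiation factor eIF2. In the other direction, 133 genes (1.17%) and 253 genes (2.23%) were higher, and 3 were higher in both (2.26% and 1.19%), namely Cdkn1a, Eda2r and Trp53inp1. That share of the CDS list is close to the 2.23% of all described genes that were higher after PAS deletion. Opposite directions at the same threshold were found for 11 genes, 7 of them lower after CDS deletion and higher after PAS deletion (Atf4, Gm14399, Gpr22, Rnf216, Snrpc, Tspan18 and Vps28) and 4 the reverse (Bcdin3d, Fam193b, Gm49797 and Tmem256). The 7 are out of 190 genes, beside 2.23% of all described genes that were higher after PAS deletion. The 4 are out of 133 genes, beside 2.13% that were lower. Only Atf4 among the 11 was called in either line, so the others are not shown to respond in opposite directions. The lines share no library, and the gene lists were chosen with earlier results of the same data known.

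Cars, the cysteinyl-tRNA synthetase, was the gene other than Atf4 that was called in each line. Its level was 20.7, 20.7, 22.5 and 22.6 CPM in the CDS knockouts and 29.7, 28.1, 29.4 and 31.4 CPM in the CDS controls. In the PAS line it was 21.5, 20.4, 19.0 and 22.3 CPM with the deletion and 27.2, 29.5 and 31.6 CPM without. The groups did not overlap in either line. The log2 change was −0.46 ± 0.06 (SE) after CDS deletion and −0.50 ± 0.07 after PAS deletion, and the 95% interval of the difference ran from −0.23 to 0.15.

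Iars, the isoleucyl-tRNA synthetase, had the smallest p for the difference among the 20 cytosolic synthetases. It lay at 129, 134, 134 and 129 CPM in the CDS knockouts and at 171, 161, 160 and 168 CPM in the CDS controls. With and without PAS deletion it lay at 148, 139, 142 and 143 CPM and at 160, 162 and 158 CPM. The groups were apart in both lines, and the gap was wider in the CDS line. The log2 change was −0.33 ± 0.04 against −0.16 ± 0.04, a difference of 0.17 (95% interval 0.057 to 0.27) with an unadjusted p of 0.0044 and an adjusted p of 0.995 by edgeR's quasi-likelihood test.

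Over the 20 synthetases, none was called for the difference, and 1 had an unadjusted p under 0.05 (higher, against 2.18% of all described genes). After CDS deletion 5 were called lower, and after PAS deletion 1. A call in one line alone does not show a difference between lines, and the 95% interval of the difference held 0 for 19. The interval lay within 1.5-fold for all 20, as for 94.2% of all described genes. That bound, 0.585 on the log2 scale, is wider than any synthetase change, the lowest being −0.46 in the CDS and −0.50 in the PAS line. Lying within it therefore does not show that the lines responded alike. Aars had log2 changes of −0.28 with CDS and −0.23 with PAS deletion, Yars of −0.27 and −0.20, Nars of −0.24 and −0.15, and Mars, the methionyl-tRNA synthetase, of −0.19 and −0.22. Eprs, which joins glutamyl- and prolyl-tRNA synthetase in one protein, was near 0 with both, at −0.05 and −0.03. Across the 20 genes the changes of the lines had a Pearson's r of 0.877 and a Spearman's rho of 0.794, against −0.0936 and −0.0549 over all described genes without Atf4. These are descriptions across genes, which are not independent replicates. The median difference of the synthetases was 0.056, with 80% positive, beside 0.0067 and 52.9% for all described genes. Without PAS control 3 the median was 0.013, and without the library labelled PAS knockout 1 it was 0.030. List medians have no test here, and leaving out a single library changed the sign of the median difference in 15 of the 40 lists and moved it by over 1.5 times in all 40, so they describe these libraries.

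**Figure D2:**
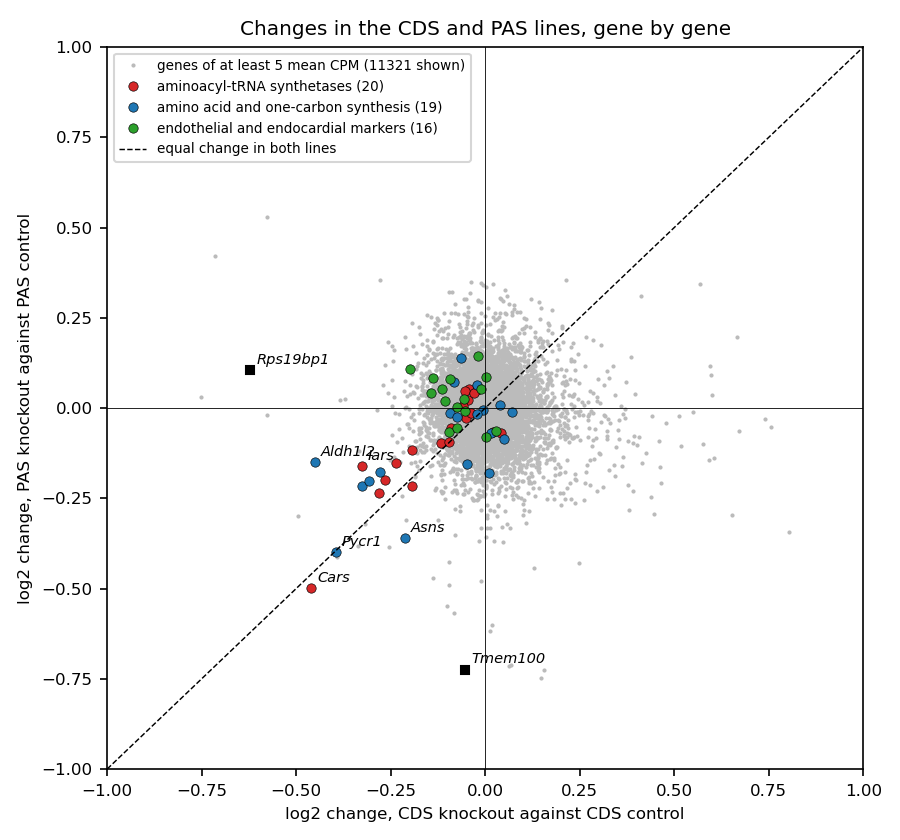
Log2 change in the CDS line (x axis) against that in the PAS line (y axis) for 11321 of the 11331 described genes (grey), with 3 gene lists in colour, Rps19bp1 and Tmem100 as squares, and the dashed line of equal change. Atf4 and 9 other genes lie outside the axes. Cars and Pycr1 lie almost on the dashed line, while Aldh1l2 and Iars lie above it, with lower values in the CDS line.

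Enzymes of amino acid and one-carbon synthesis (19 of 20 listed were described) had a median difference of 0.006, which ran from −0.025 to 0.042 with single libraries left out. Aldh1l2, the mitochondrial 10-formyltetrahydrofolate dehydrogenase, stood farthest from equal change. It lay at 51.5, 48.5, 40.4 and 46 CPM in the CDS knockouts, 65.9, 69.5, 58.2 and 61.7 CPM in the CDS controls, 47.3, 51.1, 48.4 and 53.2 CPM in the libraries labelled PAS knockout and 57.1, 52.8 and 56.5 CPM in the PAS controls. The CDS groups were apart and the PAS groups overlapped slightly. The difference was 0.30 (95% interval 0.098 to 0.50, unadjusted p 0.0058), and it did not pass adjustment. Got2, the mitochondrial aspartate aminotransferase, had a difference of 0.20 (unadjusted p 0.016), from changes of −0.06 and 0.14.

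Phgdh, which opens the serine route, fell by 0.33 on the log2 scale after CDS deletion, where it was called, and stood at −0.21 after PAS deletion. The interval of its difference, −0.042 to 0.27, held 0. Mthfd2, a mitochondrial enzyme of folate metabolism, had changes of −0.31 and −0.20, and Aldh18a1, the first enzyme of proline synthesis from glutamate, of −0.28 and −0.18. Pycr1, the last enzyme of that route, had −0.40 with either deletion. Asns, the asparagine synthetase, had the reverse order, at −0.21 and −0.36, with an interval of the difference from −0.46 to 0.17. Psat1, which acts after Phgdh in serine synthesis, had −0.01 with both. The 7 genes beside Atf4 and Rps19bp1 that were called with CDS deletion were chosen by that change, so smaller values after PAS deletion are not independent evidence of a weaker response there.

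Among 13 described amino acid transporters none had an unadjusted p under 0.05 for the difference, and the median was 0.002 (−0.023 to 0.028 with single libraries left out). Slc7a5 and Slc3a2, the light and heavy chain of the large neutral amino acid carrier LAT1, had log2 changes of −0.22 and −0.10 with CDS deletion and of −0.24 and −0.12 with PAS deletion.

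**Figure D3:**
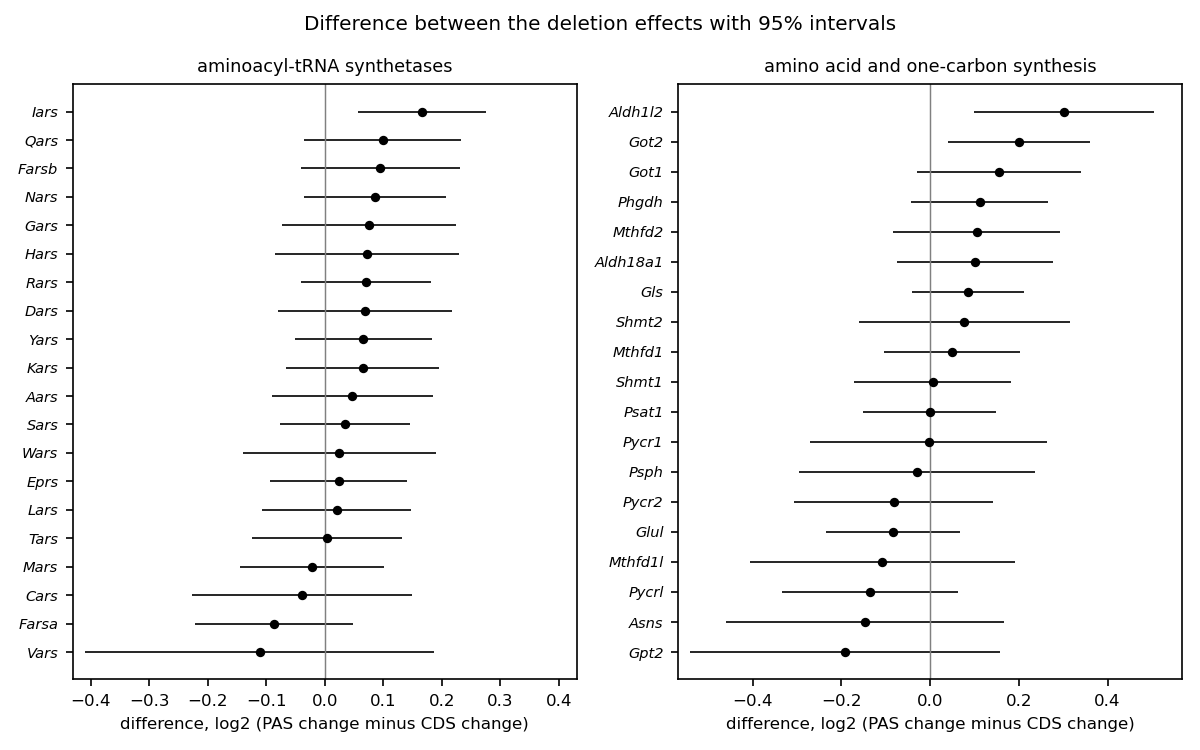
Difference between the deletion effects on the log2 scale (x axis, points) with its 95% interval (bars) for each of 20 synthetases and 19 synthesis enzymes (y axis), in order of the difference. Intervals for 19 of the synthetases and 17 of the enzymes hold 0, and those of Iars, Aldh1l2 and Got2 lie above it.

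Other regulators of the stress response had small differences. Of 17 described regulators, 1 had an unadjusted p under 0.05 for the difference, and the median difference was −0.039, from −0.084 without CDS control 3 to −0.014 without PAS control 3. That gene was Ppp1r15a (GADD34), which directs the phosphatase that acts on eIF2α, with changes of 0.04 with CDS and −0.22 with PAS deletion, a difference of −0.26 (unadjusted p 0.030). Its PAS controls lay at 31.3, 24.6 and 25.9 CPM and the libraries labelled PAS knockout at 21.9, 24.7, 25.2 and 22.3 CPM, so the groups overlapped. Atf5, a related bZIP factor, had changes of −0.13 and −0.31, and Ddit3 (CHOP), which acts with ATF4 under stress, of −0.08 and −0.28. Both intervals of the difference held 0. Of 18 partners of the bZIP family, Jdp2 had the smallest p (difference −0.27, unadjusted p 0.033), with 7.63, 7.61, 6.94 and 6.62 CPM in the libraries labelled PAS knockout and 9.21, 8.91 and 9.42 CPM in the PAS controls. Those groups did not overlap, while the CDS groups at 8.06 to 9.04 and 8.71 to 9.65 CPM did. The 19 chaperones of the endoplasmic reticulum had a median difference of −0.010 (−0.071 without PAS control 3, 0.039 without PAS control 2), and none had an unadjusted p under 0.05.

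Targets of p53, the tumour suppressor that arrests or kills damaged cells, had a median difference of −0.035 over 25 genes, which ran from −0.054 without the library labelled PAS knockout 2 to −0.0025 without PAS control 1. The 3 genes higher in both lines at an unadjusted p under 0.05 are all on this list. At that threshold 5 of the 25 were higher and 1 lower after CDS deletion, beside 1.17% of all described genes higher. After PAS deletion 4 were higher and 0 lower, beside 2.23% higher. Across the 25 genes the changes of the lines had a Pearson's r of 0.769 and a Spearman's rho of 0.494, as a description. Cdkn1a, which encodes the cell cycle inhibitor p21, lay at 27.6, 25.7, 27.8 and 24.4 CPM in the CDS knockouts and at 20.2, 18.2, 23.2 and 17.9 CPM in the CDS controls. In the PAS line it lay at 24.1, 25.2, 28.6 and 22.6 CPM with the deletion and at 18.9, 20.7 and 21.3 CPM without. The groups were apart in both lines. The log2 change was 0.41 ± 0.08 (SE) with CDS and 0.31 ± 0.09 with PAS deletion, neither of them called, and the interval of the difference ran from −0.35 to 0.15.

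Eda2r, a receptor of the tumour necrosis factor family, lay at 8.82, 10.9, 12.6 and 9.30 CPM in the CDS knockouts and at 7.18, 6.36, 7.44 and 7.09 CPM in the CDS controls, which were apart. In the PAS line it lay at 7.32, 9.77, 8.21 and 9.49 CPM with the deletion and at 7.40, 6.47 and 6.71 CPM without, and 1 library of each overlapped. The changes were 0.57 ± 0.11 and 0.34 ± 0.13, and the interval of the difference, −0.57 to 0.12, held 0. Trp53inp1, a stress protein that acts with p53, had changes of 0.14 and 0.18. Phlda3, an inhibitor of the kinase AKT, was the member with an unadjusted p under 0.05 for the difference (−0.18, p 0.024), with changes of 0.14 and −0.03. It lay at 32.3, 32.7, 32.3 and 31.9 CPM in the CDS knockouts and at 29.4, 29.7, 30.0 and 28.0 CPM in the CDS controls, which did not overlap, while the PAS groups did, at 27.7 to 31.1 and 28.7 to 31.8 CPM.

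Endothelial and endocardial markers leaned towards a positive difference, without any gene being called. Of 16 described markers, 14 had a positive difference, the median was 0.083, and 5 had an unadjusted p under 0.05, all positive, against 2.18% of all described genes. The median was 0.044 without PAS control 3 and 0.12 without PAS control 1. Cdh5, the cadherin of endothelial junctions, lay at 270, 283, 256 and 289 CPM in the CDS knockouts and 304, 300, 307 and 299 CPM in the CDS controls, which did not overlap. In the PAS line it lay at 284, 285, 307 and 319 CPM with the deletion and at 290, 299 and 256 CPM without, which overlapped. The difference was 0.22 (95% interval 0.071 to 0.37, unadjusted p 0.0058). The difference of Pecam1, an adhesion molecule of endothelium, was 0.17, that of Kdr, the main VEGF receptor, 0.19, that of Npr3, a natriuretic peptide receptor of the endocardium, 0.17, and that of Plvap, of endothelial diaphragms, 0.31. The summed level of 18 markers was 2169 to 2364 CPM in the CDS knockouts and 2392 to 2493 CPM in the CDS controls, against 2303 to 2428 and 2126 to 2465 CPM in the PAS line. The Cre acts in cardiomyocytes, and whether the share of endothelial cells in the dissected tissue moved with these values was not tested.

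**Figure D4:**
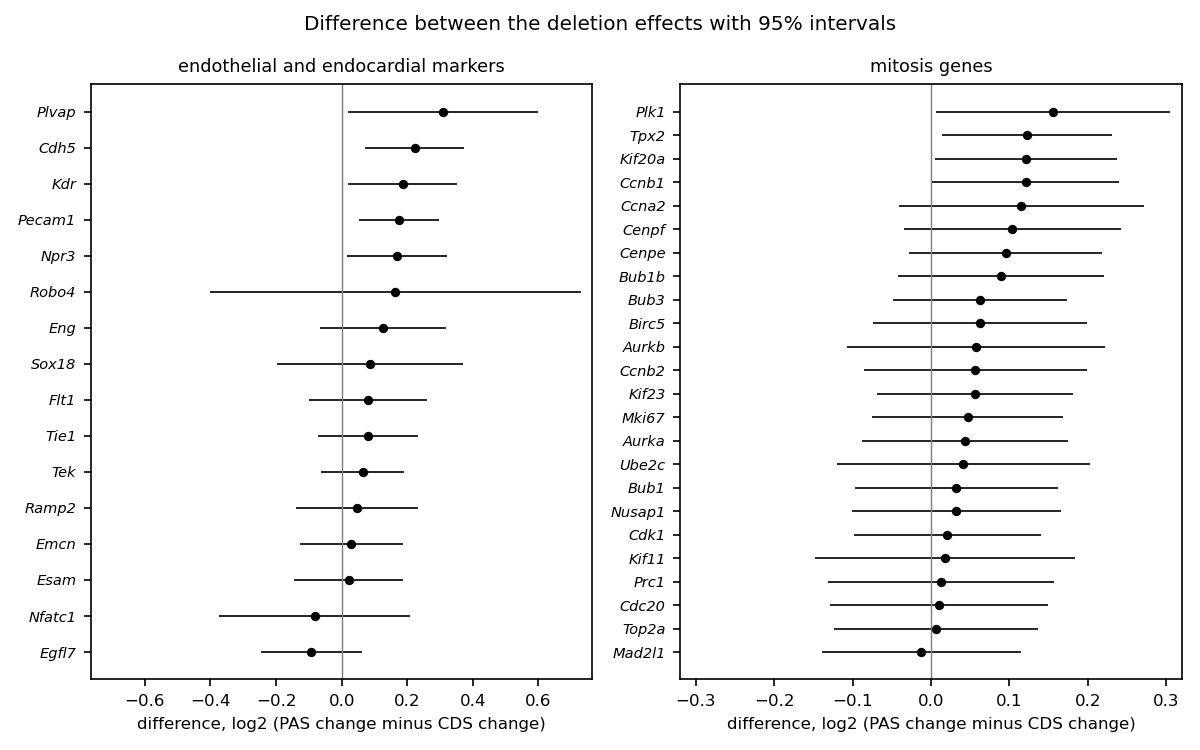
Difference between the deletion effects on the log2 scale (x axis, points) with its 95% interval (bars) for 16 endothelial and endocardial markers and 24 mitosis genes (y axis). Most points lie above 0, and 5 markers and 4 mitosis genes have intervals that do not hold 0.

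Most genes of mitosis and of mitochondria had small positive differences. Of 24 mitosis genes 23 had a positive difference, with a median of 0.056, and 4 had an unadjusted p under 0.05, all positive, beside 52.9% positive and 2.18% of all described genes. The median was 0.032 without CDS knockout 3 and 0.034 without PAS control 1. Tpx2, a spindle assembly factor, had changes of −0.05 with CDS and 0.07 with PAS deletion, and Plk1, a mitotic kinase, of −0.07 and 0.09. The 25 described genes of DNA replication had a median difference of 0.023 with 56% positive (−0.0036 without CDS knockout 3), and the 1 member past the unadjusted threshold, Gins1 of the replicative helicase complex, had a difference of −0.27. All 7 described protein genes of the mitochondrial genome (of 13 listed) had positive differences, from 0.13 to 0.21, and none had an unadjusted p under 0.05. Their median of 0.19 became 0.095 without PAS control 1 and 0.30 without PAS control 3. For mt-Co1, a subunit of cytochrome c oxidase, the libraries labelled PAS knockout lay at 13193, 15149, 13787 and 14768 CPM and the PAS controls at 12665, 12950 and 14936 CPM, so the groups overlapped. Genes of the mitochondrial genome are transcribed as joint precursors, so 7 of 7 is not 7 separate observations. The 40 nuclear genes of oxidative phosphorylation had a median of 0.042, with 82.5% positive. Their median was 0.0067 without CDS knockout 3, where all described genes shifted by a median of −0.0046.

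Heart muscle genes had small differences. The 28 described sarcomere genes had a median difference of 0.040, and 2 had an unadjusted p under 0.05. The median was 0.0045 without CDS knockout 3, 0.0084 without CDS control 1 and 0.065 without PAS control 2. Myh7, the heavy chain of slow myosin, had changes of −0.14 and 0.08 (difference 0.22, unadjusted p 0.017) and Actn2, the cross-linker of the Z disc, of −0.10 and 0.06. For Myh7 the CDS knockouts lay at 6487, 5947, 5261 and 6114 CPM and the CDS controls at 6841, 6810, 5978 and 6624 CPM, so they overlapped, with CDS knockout 3 lowest. Trabecular markers had a median of 0.10 over 13 genes, 10 with a positive and 3 with a negative difference, from −0.27 to 0.18. This list shares Hey2 with that of compact layer growth. The difference of Sema3a, a guidance ligand, was 0.18, and that of Slit2, a ligand of ROBO receptors, 0.17. The median was 0.027 without PAS control 2, 0.038 without CDS control 2, 0.040 without PAS control 3 and 0.176 without PAS control 1. Cardiac transcription factors (20 genes, median 0.023, −0.0080 without PAS control 1) and compact layer growth genes (20 genes, median 0.044, 0.011 without PAS control 3) had no member with an unadjusted p under 0.05.

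**Figure D5:**
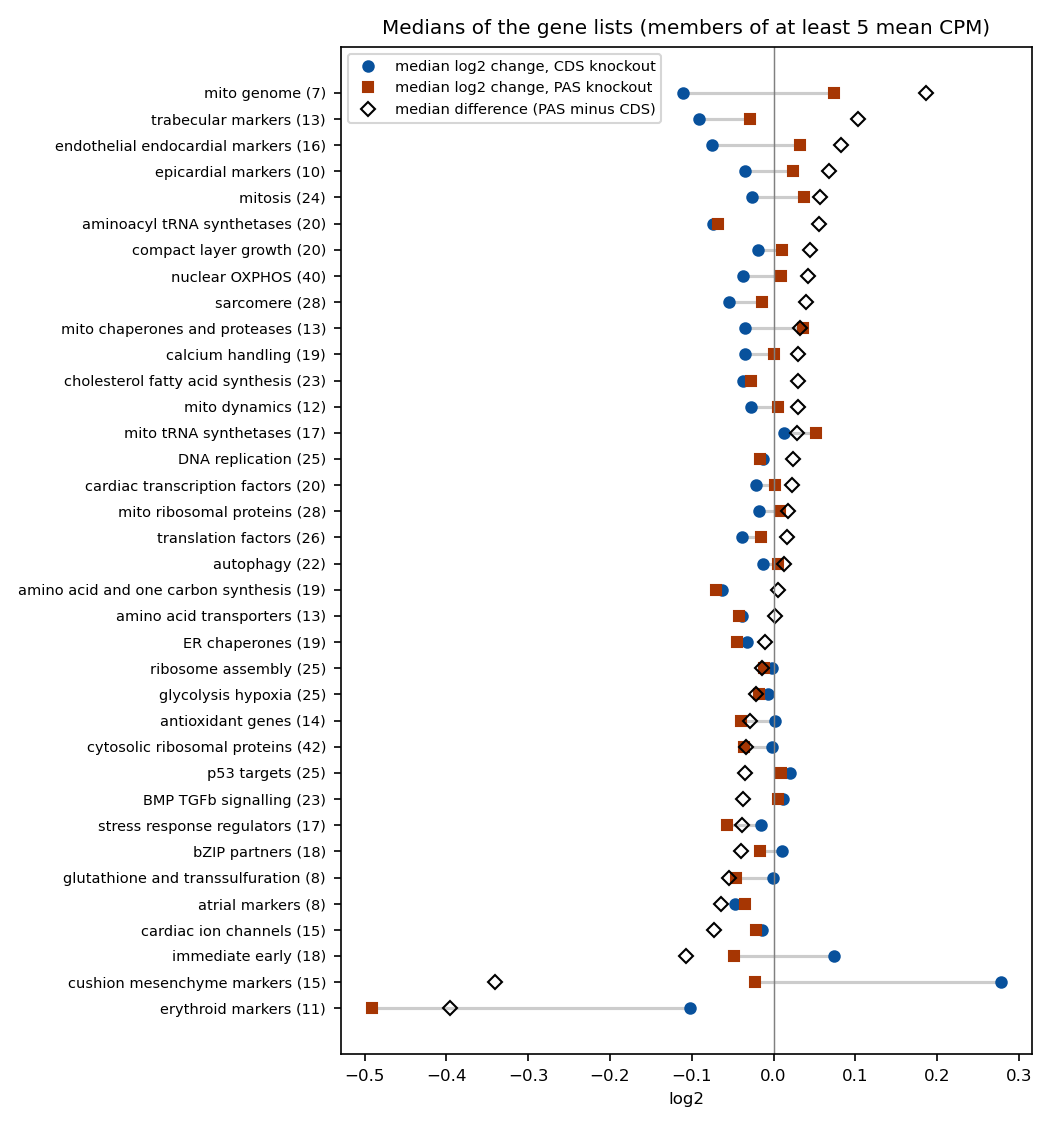
Median log2 change in the CDS line (circles), in the PAS line (squares) and median difference (diamonds) on the x axis, for 36 gene lists with at least 7 described members (y axis, member number in brackets). The synthetase and synthesis lists have both medians below 0 and close together, and the widest gaps are those of cushion mesenchyme, erythroid and mitochondrial genome genes.

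Among lists of at least 7 described members, those with the lowest medians were those of cushion mesenchyme and erythroid cells. Cushion mesenchyme markers had a median difference of −0.34 over 15 genes, 14 of them negative, with none at an unadjusted p under 0.05. The median was −0.086 without PAS control 3, −0.12 without CDS control 1 and −0.52 without CDS control 3. Tbx3, a transcription factor, lay at 16.6, 19.1, 32.4 and 16.7 CPM in the CDS knockouts and at 8.11, 12.3, 23.4 and 17.2 CPM in the CDS controls. Erythroid markers had a median of −0.40 over 11 genes, and their summed level ran from 1231 to 4550 CPM over the libraries, with groups that overlapped widely. The median became 0.0049 without CDS knockout 3 and −0.016 without PAS control 1. Immediate early genes had a median of −0.11, with 16 of 18 negative and none past the unadjusted threshold, from −0.17 without CDS knockout 1 to −0.038 without CDS control 1.

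Over all described genes, those next to Atf4 and Rps19bp1 in order of p with a positive difference began with Rnf216, a ubiquitin ligase, at 0.24 and Vps28, a subunit of the sorting complex ESCRT-I, at 0.37. Vps28 lay at 34.8, 33.8, 33.0 and 34.0 CPM in the CDS knockouts, 39.3, 39.3, 34.8 and 35.4 CPM in the CDS controls, 39.7, 35.9, 37.3 and 38.8 CPM in the libraries labelled PAS knockout and 36.0, 32.0 and 28.4 CPM in the PAS controls. Slc22a23, Tspan18, Adgrg6, Strap, Rbbp9 and Stab1 followed at 0.20 to 0.30. With a negative difference Tmem100, a membrane protein of endothelial BMP signalling and a member of the BMP and TGFβ list, came first. It lay at 37.9, 27.5 and 24.6 CPM in the PAS controls, 16.0 to 20.01 CPM in the libraries labelled PAS knockout, 15.6 to 18.6 CPM in the CDS knockouts and 16.4 to 19.0 CPM in the CDS controls. The PAS groups were apart and the PAS controls were the high group. Its difference was −0.67 (95% interval −1.01 to −0.33, unadjusted p 0.00071, adjusted p 0.995 by edgeR's quasi-likelihood test). Fgfr3, a fibroblast growth factor receptor, followed at −0.43, with 12.2, 14.4, 13.9 and 13.3 CPM in the CDS knockouts against 10.1, 11.1, 10.9 and 11.5 CPM in the CDS controls. Bcdin3d, E4f1, Tardbp, Fam193b, Tmem256, Hemk1, Grk6 and Mcts1 had differences from −0.35 to −0.17. None of these genes passed adjustment.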

How the data were processed

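The deposited values are raw fragment counts per gene, which the authors obtained per the file headers from featureCounts 2.1.1, counting read pairs by exon against GENCODE M37 (GRCm39). No strand option was set, so reads of antisense neighbours fall together, and the lines were counted in separate runs. Which of HISAT2 2.2.1 and STAR 2.7.11b in the submitters' processing notes made them is not given in the sources used here. Names came by identifier from GENCODE M21. Genes were kept by filterByExpr (minimum count 10), scaled by trimmed mean of M values (factors 0.986 to 1.01) and fitted jointly, each group with its own mean, by edgeR 4.0.16 (R 4.3.3; 11 residual degrees of freedom, biological coefficient of variation 7.44%). The contrast was the PAS change minus the CDS change, and a gene was called where its Benjamini-Hochberg adjusted p over all 20269 genes was under 0.05. Levels of single genes are normalised CPM, and summed levels of lists are relative to total counts without that scaling. Standard errors and 95% intervals derive from the F statistic. The fitting was tested on simulated data. Replicates are separate biological samples per the labels' design text, and no pair agreed within sampling noise. Depth limits mainly the low genes.

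Named genes were Atf4 and described neighbours within 250 kb, genes called for the difference or in either line, those next in order of p up to 10 in each direction, and from each of 40 lists the called members, the 2 most abundant and the 1 with the smallest p. Members of the synthetase, synthesis, transporter, stress, p53, endothelial, mitosis, sarcomere and trabecular lists beyond that rule, and Cdkn1a, Trp53inp1, Gpr22, Snrpc, Gm14399, Gm49797, Aamp, Plcl2, Eif2s2, Cacna1i, Tmc4 and Cox8b, were chosen after their values were seen. The same holds for Mir6236, Gm15564, ENSMUSG00000140457.1, ENSMUSG00000136525.1, Eif4a-ps4 and Gm15446. The lists and the comparison were chosen with earlier results of these data known. Alternatives were other normalizations, filters, limits, tools (DESeq2 1.42.0, limma 3.58.1), a replicate block, thinned counts, covariates and left-out libraries.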

Additional observations from a re-analysis of the deposited data

Results flagged for a closer look

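Within groups of 4 libraries, 87 sets of values were examined for a library far from the others and 4 were flagged. Chance gives about 1 in 20, so the number flagged is about what chance gives. Rps19bp1 in CDS knockout 4 was 10.3 CPM, with the other CDS knockouts at 8.48 to 8.75. The other 3 concern CDS knockout 3. Lars2, the mitochondrial leucyl-tRNA synthetase, was at 3688 CPM there and at 732 to 1103 in the other CDS knockouts, and its difference was −1.77 with an unadjusted p of 0.027 by edgeR's quasi-likelihood test. All CDS knockouts lay above the CDS controls (371 to 609 CPM) and the PAS line (274 to 518 CPM). The unnamed gene ENSMUSG00000119584.1 was at 32886 CPM against 6342 to 6451, with a difference of −2.51. Its CDS knockouts also all lay above the CDS controls (2183 to 3879 CPM) and the PAS line (1915 to 4344 CPM). Mir6236, Gm15564, ENSMUSG00000140457.1 and ENSMUSG00000136525.1 had differences of −2.20, −2.03, −2.29 and −2.07, with higher means in the CDS knockouts. Eif4a-ps4 and Gm15446 had positive ones, at 1.14 and 1.11. None of these genes was called for the difference. The summed sarcomere level was 51039 CPM against 56381 to 57363. Whether these values share a source was not tested.

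Atf4 moved in opposite directions in the lines, and the difference of 2.92 on the log2 scale passed edgeR's quasi-likelihood test of the difference itself.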

How the results depend on the processing

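Atf4 was called for the difference in each of the 29 alternatives, at 2.86 to 2.96 on the log2 scale. The number of genes called for the difference was 1, or 2 with the same p-values adjusted over the described genes alone. It was 3 with no filter on low counts (Atf4, Rps19bp1 and Tmem100), 2 by DESeq2, and 1 to 2 when single libraries were left out, with 2 without CDS knockout 4 or without the library labelled PAS knockout 4. In the CDS line 9 described genes were called. That number was 27 with no filter, 18 by DESeq2, 18 by voom with quality weights, and 8 to 12 with single libraries left out. In the PAS line 2 were called, against 7 with no filter, 7 by DESeq2, and 2 to 3 with single libraries left out. Replicate numbers did not pair the samples, since knockouts and controls of the same number had correlations of deviations from −0.627 to 0.193. With the replicate number as a block, 1 gene was called for the difference, 10 after CDS and 2 after PAS deletion, and Atf4 differed by 2.93.

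Of 33 named genes, 4 that were not called changed sign. Cars was 0.038 with voom quality weights, 0.023 without CDS knockouts 3 and 4, and up to 0.016 with single libraries left out, from −0.093. Mgat3 was 0.0014 with the replicate block, 0.016 with thinned counts, 0.013 with the erythroid covariate and −0.18 to 0.095 with single libraries left out. Mief1 was 0.015 with thinned counts and −0.049 to 0.033 with single libraries left out. Pdgfb was −0.55 to 0.12 with single libraries left out. The cause was not tested. No scaling moved the median difference of all genes by more than 0.007. Depth limits genes of 5 to 10 CPM, 78.1% of which had intervals within 1.5-fold.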

Other observations

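Over all 40 lists, 687 distinct genes were described, and 20 of them had a positive and 10 a negative difference at an unadjusted p under 0.05, which is 4.37% against 3.83% of all described genes. Protein synthesis genes outside the synthetases had small differences. The 42 cytosolic ribosomal proteins had a median difference of −0.034 with 31% positive (−0.080 without PAS control 3, −0.0085 without PAS control 1), and Rplp2, of the ribosomal stalk, was the member with an unadjusted p under 0.05, at −0.16. Translation factors (26 genes) had a median of 0.017 and ribosome assembly factors (25 genes) one of −0.014. The 28 mitochondrial ribosomal proteins had a median of 0.017, with Mrps22 at 0.18, and the 13 mitochondrial chaperones and proteases one of 0.032. Among 22 autophagy genes, Gabarapl2, of the family that tags autophagosome membranes, had a difference of 0.32 and Optn, an autophagy receptor, one of −0.19. The level of Gabarapl2 was 32.3, 38.7, 35.5 and 31.8 CPM in the libraries labelled PAS knockout and 27.0, 29.6 and 27.7 CPM in the PAS controls. None of these genes was called.

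Medians of metabolic and signalling lists were 0.030 for cholesterol and fatty acid synthesis, −0.022 for glycolysis and hypoxia genes, −0.029 for antioxidant genes and −0.038 for BMP and TGFβ signalling, whose member Tmem100 had a difference of −0.67. Me1, the cytosolic malic enzyme, had a difference of −0.20 with an unadjusted p of 0.018 and was not called. Markers of liver, choroid plexus and yolk sac summed to 44.1, 48.1, 168 and 242 CPM in CDS knockouts 1 to 4. They summed to 38.2 to 72.5 CPM in the CDS controls and 19.7 to 35.8 CPM in the PAS line. Only CDS knockouts 3 and 4 thus lay above the CDS controls. One of these markers, Ttr, lay at 13.8, 17.6, 104 and 154 CPM in the CDS knockouts, 11.2 to 35.2 CPM in the CDS controls and 0.263 to 0.743 CPM in the PAS line. Without CDS knockouts 3 and 4, the count of genes called for the difference was 1.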
